A study of Homo sapiens with 4 samples.

Results

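Open chromatin was examined at the 6 genes that encode the receptor for interferon-γ (IFN-γ), the Janus kinases it works through or that belong to the same kinase family, and a phosphatase that opposes them. These were IFNGR1, IFNGR2, JAK1, JAK2, TYK2 and PTPN2. The assay was ATAC-seq, which tags accessible DNA with a transposase, and the cells were HK1, a human line established from a nasopharyngeal carcinoma. Cells were wild type (WT) or carried a knockout of the transcription factor gene FLI1 made with a guide RNA (sgFLI1, FLI1-KO), and each genotype was left untreated or given IFN-γ, for a day per the study's methods. This made 1 peak list for each of WT and WT-IFN-γ and for each of sgFLI1 and sgFLI1-IFN-γ, and values given without group names follow that order. The labels name no guide and do not say whether the FLI1-KO cells were 1 clone or a pool, so whatever else distinguishes these cells from WT cannot be told apart from the knockout. Peaks were taken if they overlapped a gene body or the 10 kb upstream of it in the GENCODE annotation of GRCh38. WT had 27 such peaks and WT-IFN-γ 36, sgFLI1 had 30 and sgFLI1-IFN-γ 28, and these merged into 40 of the 93211 regions of the series.

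IFN-γ binds a receptor built from a ligand-binding chain, IFNGR1, and a signalling chain, IFNGR2. JAK1 is bound to the first and JAK2 to the second, and the kinases phosphorylate each other and the receptor once the ligand has brought the chains together. TYK2 is a kinase of the type I interferon receptor, among others, and is not part of the IFN-γ receptor. PTPN2 is a tyrosine phosphatase that removes phosphate from JAK1 and so damps the signal. Loss of JAK1, JAK2 or the receptor chains is a known way for tumour cells to stop responding to IFN-γ, whereas loss of PTPN2 makes them more sensitive.

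The regions on which the comparisons turned are shown first, as the 201 bases around the summit in hg38, on the strand of the gene. The first had a peak in the FLI1-KO pair and in neither WT library, and the second had one in the WT pair and in neither FLI1-KO library. The regions at 50.5 and 14.1 kb in JAK1 and that at PTPN2 were listed in WT-IFN-γ alone, and the one at 48.8 kb was the highest region away from a coding promoter that every list held. Distances are from the canonical transcription start site (TSS). Capitals mark matches to the motif of interferon regulatory factors (IRF, GAAANNGAAA), to the AP1 motif (TGANTCA) or to the NFKB motif, all searched on both strands.
IFNGR2, 2.2 kb upstream (chr21:33401122-33401322, plus strand): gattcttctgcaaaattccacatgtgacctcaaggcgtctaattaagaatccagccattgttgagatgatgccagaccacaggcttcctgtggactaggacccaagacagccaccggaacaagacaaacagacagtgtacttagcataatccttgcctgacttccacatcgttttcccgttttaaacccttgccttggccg
IFNGR2, 38.9 kb downstream (chr21:33442174-33442374, plus strand): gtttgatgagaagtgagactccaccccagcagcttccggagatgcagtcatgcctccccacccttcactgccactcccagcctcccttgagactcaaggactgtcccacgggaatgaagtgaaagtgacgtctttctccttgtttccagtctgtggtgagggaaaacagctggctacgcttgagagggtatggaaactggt
JAK1, 50.5 kb downstream (chr1:64915956-64916156, minus strand): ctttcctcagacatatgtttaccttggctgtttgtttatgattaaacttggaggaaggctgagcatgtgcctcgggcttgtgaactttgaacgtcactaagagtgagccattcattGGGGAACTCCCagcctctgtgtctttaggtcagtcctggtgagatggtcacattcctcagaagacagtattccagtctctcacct
JAK1, 14.1 kb downstream (chr1:64952391-64952591, minus strand): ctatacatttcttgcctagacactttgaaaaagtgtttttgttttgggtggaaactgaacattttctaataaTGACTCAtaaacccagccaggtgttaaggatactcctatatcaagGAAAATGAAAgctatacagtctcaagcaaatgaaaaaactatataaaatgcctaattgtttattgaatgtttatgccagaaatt
JAK1, 48.8 kb downstream (chr1:64917621-64917821, minus strand): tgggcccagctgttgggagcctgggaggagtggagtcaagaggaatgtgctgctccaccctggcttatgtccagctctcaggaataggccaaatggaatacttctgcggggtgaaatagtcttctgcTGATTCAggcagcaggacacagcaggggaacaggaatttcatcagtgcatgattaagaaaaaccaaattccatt
PTPN2, upstream region (chr18:12904099-12904299, minus strand): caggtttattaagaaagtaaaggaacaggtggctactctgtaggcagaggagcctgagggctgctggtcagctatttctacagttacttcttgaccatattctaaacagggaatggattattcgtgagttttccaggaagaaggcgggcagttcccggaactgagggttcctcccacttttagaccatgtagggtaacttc
Of these, the window 50.5 kb downstream of the JAK1 TSS held 2 overlapping NFKB matches, that at 48.8 kb an AP1 match, and that at 14.1 kb an AP1 and an IRF match. The IRF match was the only one among the 40 regions (2.5%), and 4.57% of all regions of the series had one. AP1 matches were found in 11 regions (27.5%, against 22.6% of all regions) and NFKB matches in 2 (5%, against 3.64%), the second of them at the IFNGR1 promoter. The ETS motif CCGGAAGT, of the kind FLI1 binds, had 0 matches in the 40 windows and was in 0.988% of all regions. A match is a stretch of letters and not a bound site. The median GC content of the windows was 50.2%, against 49.8% over the series.

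Signal is given as the summit pileup, the whole number of tags stacked over the summit, which was recovered from the deposited fold and p-values of each peak. To compare libraries it was divided by the library's tag density, which was 8.04 and 8.84 tags per kb in the WT pair (untreated, treated) and 6.93 and 6.86 in the FLI1-KO pair. The lists held between 59629 and 67470 peaks, with median pileups between 26 and 31 tags and lowest pileups of 7 or 8. No group had a replicate, so nothing could be tested between groups, and the 95% intervals cover counting error only. The comparisons share libraries, so that a high or low value in 1 library enters 2 of the 4. In a bulk library, fewer cells with a region open, fewer copies of the gene and less opening per cell cannot be told apart. The edit in FLI1 cannot be seen in peak lists, so the genotype was not checked here. Promoter peaks, within 500 bp of the canonical TSS, were found in every list at EPCAM and KRT8. The other 5 of 7 epithelial markers, among them TP63 and KRT5, had 0. Of 5 leukocyte markers CD14 had one in every list, and of 4 endothelial and fibroblast markers COL1A2 had one in WT and sgFLI1. A gene without a promoter peak was not always without peaks. The windows of TP63 held 11, 10, 7 and 4, of CDH1 5, 8, 6 and 6, and of GRHL2 11, 13, 9 and 12. KRT5 and KRT14 had at most 2 in any list. Among the other markers, PTPRC had 5, 4, 3 and 3 and PECAM1 8, 7, 11 and 13.

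Of the 40 regions, 23 (57.5%) were present in all 4 lists, as were 43.9% of the regions of the series, and 9 (22.5%) were in 1 list, against 32.4%. JAK1 had 18 regions in a window of 245 kb, IFNGR2 and PTPN2 7 each, TYK2 5, JAK2 2 and IFNGR1 1. Over 20007 protein-coding genes the median was 2 peaks within each list. Unlike the regions, this count was not merged over the lists, and it was not matched for window length. A promoter peak, within 500 bp of the canonical TSS, was present in all 4 lists at 57.1% of these genes. IFNGR1, JAK1, JAK2, TYK2 and PTPN2 had one in every list, and IFNGR2 had one in WT, WT-IFN-γ and sgFLI1-IFN-γ. All 6 genes thus had accessible chromatin at or just beyond the promoter in every library.

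**Figure D1:**
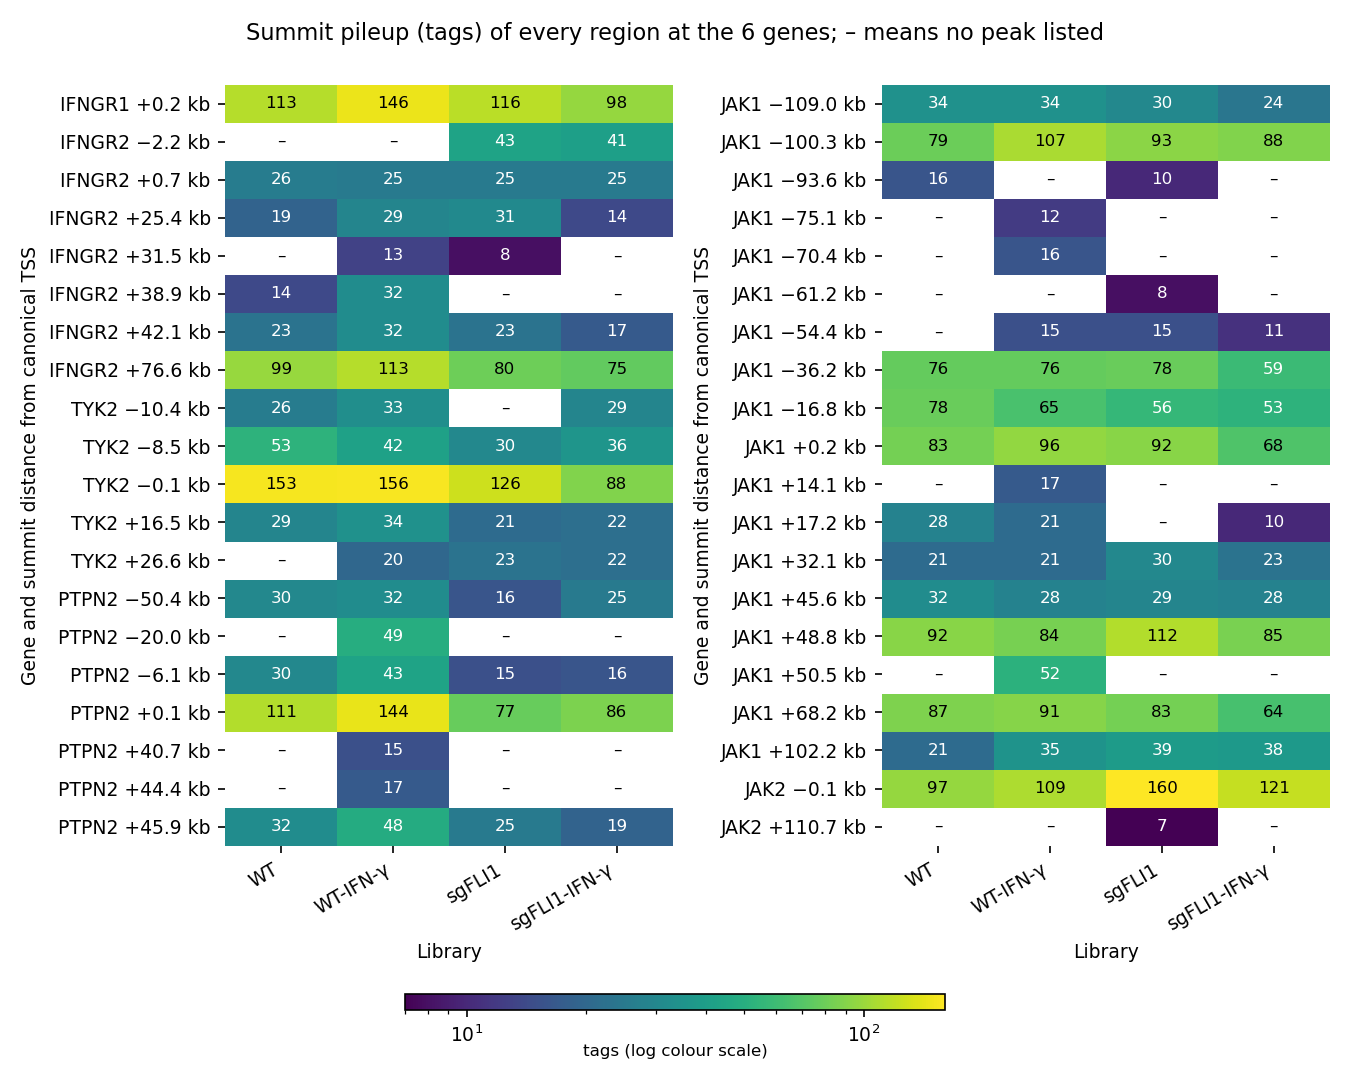
Summit pileup in tags of the 40 regions at the 6 genes (rows, named by gene and distance of the summit from the canonical TSS) in each of the 4 libraries (columns), on a log colour scale, with a dash where no peak was listed. The promoter rows are filled in all 4 columns, and 7 rows are filled in WT-IFN-γ alone.

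Among the receptor chains, IFNGR1 (ENSG00000027697.16, chromosome 6, minus strand, TSS at 137219385) had a single region, which covered the promoter. WT cells had a pileup of 113 tags (93.1 to 136) untreated and 146 (123 to 172) treated, and FLI1-KO cells one of 116 (95.9 to 139) and 98 (79.6 to 119). Per tag density these levels were 14.0, 16.5, 16.7 and 14.3, so WT-IFN-γ and sgFLI1 were the higher pair, and the intervals of all 4 overlapped. The log2 ratio of IFN-γ to untreated was 0.23 in WT (-0.13 to 0.60) and -0.23 in FLI1-KO cells (-0.63 to 0.17), so neither excluded 0. The second of these was 0.04 once the median of the shared peaks within 5 Mb was set to 0, which turned its direction.

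IFNGR2 (ENSG00000159128.16, chromosome 21, plus strand, TSS at 33403413) had the weakest promoter of the 6. A peak in intron 1, with its summit 0.7 kb downstream of the TSS, had 26, 25, 25 and 25 tags. This placed it between percentiles 4.74 and 6.52 of the promoter peaks of the 3 lists in which it reached within 500 bp of the TSS. The level was much the same in all 4 libraries, although at this depth the log2 ratio of sgFLI1-IFN-γ to WT-IFN-γ, 0.37, had an interval from -0.49 to 1.23.

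Away from the promoter, IFNGR2 held the 2 regions, of the 40, that were listed in both libraries of 1 genotype and in neither of the other. A region 2.2 kb upstream of the TSS (chr21:33400786-33401496) was listed in neither WT library, whereas the untreated FLI1-KO library had 43 tags (31.1 to 57.9) and the treated one 41 (29.4 to 55.6). The nearest annotated start was that of ENSG00000289939, a noncoding gene, at -1431 bp. At the depth of WT the sgFLI1 signal would amount to 52.8 tags, and 18 would have been listed. The reverse was seen 38.9 kb downstream (chr21:33442085-33442507), beyond the end of the canonical transcript but within longer ones, where WT had 14 tags (7.65 to 23.5), WT-IFN-γ 32 (21.9 to 45.2) and the FLI1-KO libraries no peak. The nearest coding TSS there was that of TMEM50B, at 37700 bp, and not that of IFNGR2, at 38861 bp. The WT-IFN-γ signal would amount to 26.1 and 25.4 tags in the FLI1-KO pair, and 11 were needed in each. Over the series, 3322 regions (3.56%) were listed in the FLI1-KO libraries alone and 3912 (4.20%) in the WT libraries alone, so regions of either pattern were many.

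Of the other IFNGR2 regions, that in intron 4 at 25.4 kb had 19, 29, 31 and 14 tags, so that the pair of libraries in the middle was high and the outer pair low. Its log2 ratio of sgFLI1 to WT was 0.92 (0.05 to 1.83) and that of sgFLI1-IFN-γ to sgFLI1 -1.13 (-2.16 to -0.18). The region at 76.6 kb, with 99, 113, 80 and 75 tags, is the promoter of TMEM50B, the neighbouring gene on the opposite strand, 7 bp from that gene's TSS. It was 1 of the 40 regions to lie within 500 bp of the TSS of another coding gene. The region at 42.1 kb, also nearer to the TSS of TMEM50B than to that of IFNGR2, had 23, 32, 23 and 17 tags. That at 31.5 kb was listed in WT-IFN-γ (13) and sgFLI1 (8) only.

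**Figure D2:**
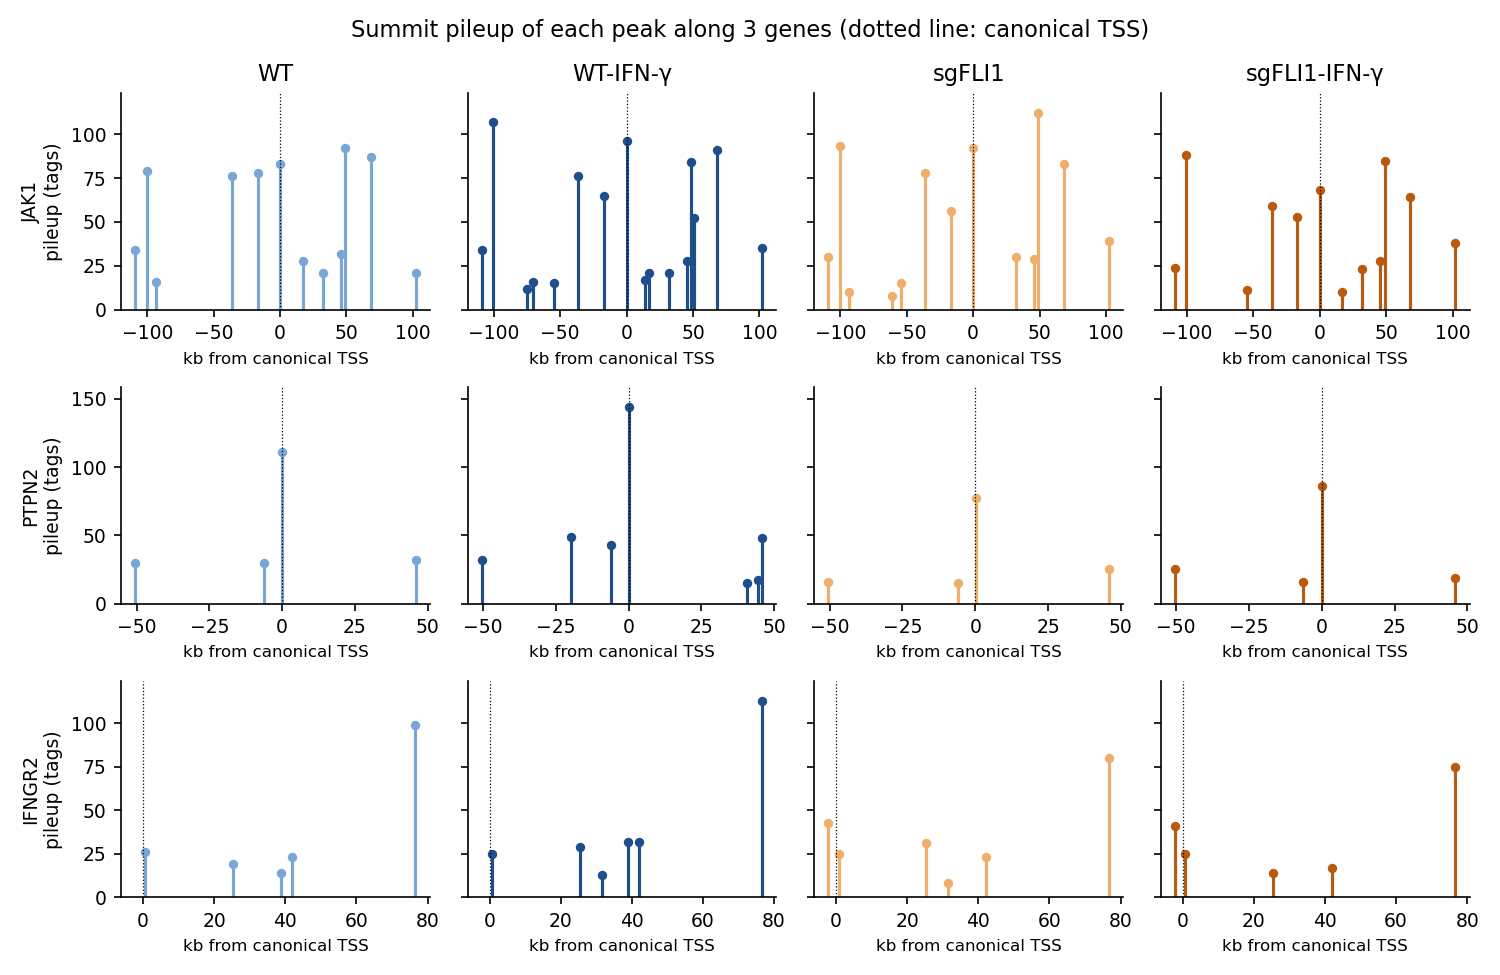
Summit pileup in tags (y axis) of each peak by distance from the canonical TSS in kb (x axis, dotted line at 0) at JAK1, PTPN2 and IFNGR2 in the 4 libraries. The stem just upstream of the IFNGR2 TSS is present in both FLI1-KO libraries (43 and 41 tags) and absent from both WT libraries, and WT-IFN-γ has the most stems at JAK1 (16) and PTPN2 (7).

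Among the kinases, JAK1 (ENSG00000162434.14, chromosome 1, minus strand, TSS at 64966549) was the gene with the most open regions, with 12, 16, 13 and 12 peaks. At the promoter, WT cells had 83 tags (66.1 to 103) and with IFN-γ 96 (77.8 to 117), and FLI1-KO cells had 92 (74.2 to 113) and with IFN-γ 68 (52.8 to 86.2). All 4 intervals overlapped, and the log2 ratios ranged from -0.42 to 0.36 with intervals that held 0. Over the 10 regions that every list held, the summed pileup was 603, 637, 642 and 530 tags. The log2 ratio of sgFLI1 to WT for this sum was 0.30 (0.14 to 0.47), where the shared peaks within 5 Mb had a median of 0.18, and that of sgFLI1-IFN-γ to sgFLI1 was -0.26 (-0.43 to -0.09), where they had -0.16.

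Several regions inside JAK1 were as high as its promoter. In intron 1, 48.8 kb from the TSS (chr1:64917271-64918051), there were 92, 84, 112 and 85 tags. Untreated FLI1-KO cells were the highest there, with a log2 ratio of 0.50 to WT (0.09 to 0.91). A region 68.2 kb downstream in the same intron had 87, 91, 83 and 64 tags. One 100.3 kb upstream, at an alternative start of JAK1 744 bp away, had 79, 107, 93 and 88, and one 36.2 kb upstream, at -239 bp from the start of the noncoding gene LINC01359, had 76, 76, 78 and 59. In intron 8, at 102.2 kb, WT was low with 21 tags and the others had 35, 39 and 38. The log2 ratio of sgFLI1 to WT was 1.11 there (0.31 to 1.95), and that of WT-IFN-γ to WT 0.60 (-0.22 to 1.46).

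Of the 40 regions, 7 (17.5%) were found in WT-IFN-γ alone, as were 10854 (11.6%) of the series, and 4 of the 7 lay at JAK1 and 3 at PTPN2. The strongest was in intron 1 of JAK1, 50.5 kb from the TSS (chr1:64915869-64916141), with 52 tags (38.8 to 68.2) over a local background of 9.87. It lay close to the region at 48.8 kb, which every list held. The same signal would amount to 52.1 tags in WT, where 21 were needed, and to 42.4 and 41.3 in the FLI1-KO pair, where 18 were needed in each. The other JAK1 regions of this kind had 12, 16 and 17 tags, the last at 14.1 kb, named here for the IRF match after its values were seen. A region at 17.2 kb was not listed in sgFLI1 and had 28 and 21 tags in the WT pair and 10 in sgFLI1-IFN-γ. The region 16.8 kb upstream was in every list with 78, 65, 56 and 53 tags. Weaker regions in every list, 109.0 kb upstream and 32.1 and 45.6 kb downstream, had between 21 and 34 tags. Those 93.6, 61.2 and 54.4 kb upstream were in 2, 1 and 3 lists with at most 16 tags.

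JAK2 (ENSG00000096968.14, chromosome 9, plus strand, TSS at 4985272) had a promoter region and little else in a window of 156 kb, with 1 further peak of 7 tags in sgFLI1, which would amount to 8.59 tags in WT and 8.58 in WT-IFN-γ, where 8 were needed, and would have missed the limit in sgFLI1-IFN-γ. In WT cells the promoter had 97 tags (78.7 to 118), or 109 (89.5 to 131) when treated, and in FLI1-KO cells 160 (136 to 187), or 121 (100 to 145) when treated. Per tag density these levels were 12.1, 12.3, 23.1 and 17.6, so both FLI1-KO libraries were above both WT libraries. Untreated FLI1-KO cells had 1.91 times the WT level (1.48 to 2.49), a log2 ratio of 0.94 at percentile 99.4 of 11628 promoters. With IFN-γ the log2 ratio was 0.52 (0.13 to 0.90), at percentile 97.2.

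The surroundings of JAK2 moved with it. The 31 shared peaks within 5 Mb had a median log2 ratio of sgFLI1 to WT of 0.87 (quartiles 0.71 and 1.19), and 32 had 0.82 with IFN-γ (0.58 and 1.03). The JAK2 promoter was 0.06 above its surroundings without IFN-γ and -0.30 from them with it. Its counting interval (0.56 to 1.32 untreated, 0.13 to 0.90 treated) held the median of the surroundings in each state, so the promoter was not resolved from them. At the other 5 genes the medians of the surroundings lay between -0.38 and 0.18. Copy number and accessibility over this stretch of chromosome 9 cannot be told apart here.

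**Figure D3:**
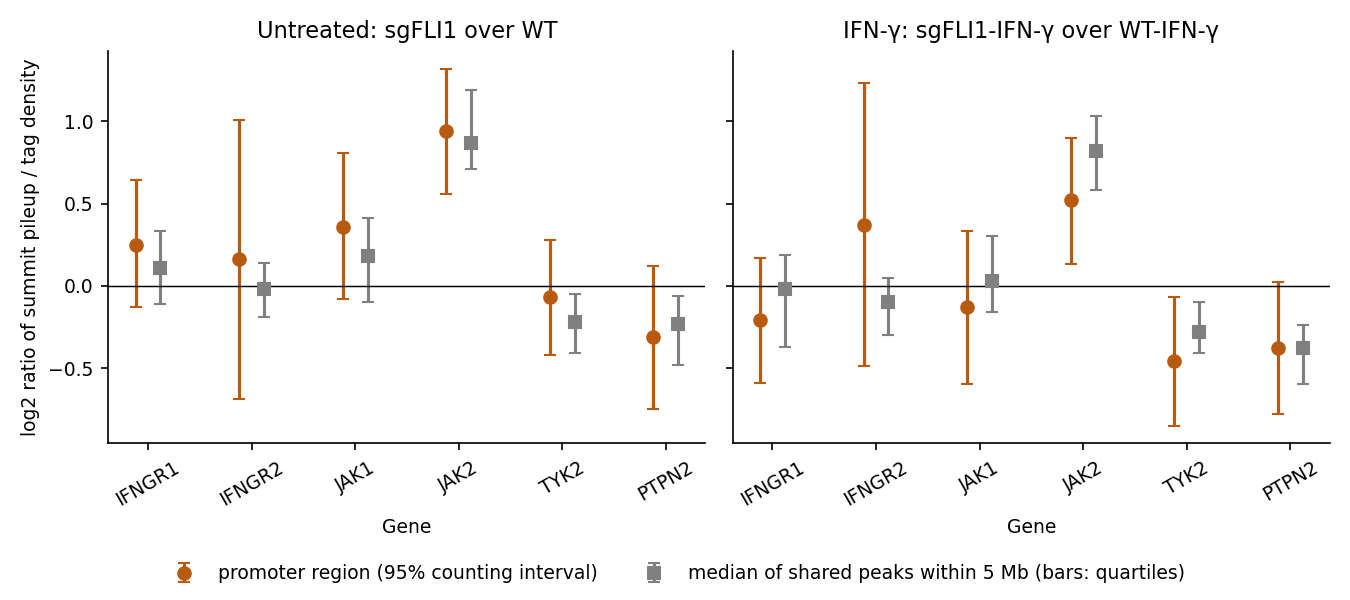
Log2 ratio of FLI1-KO to WT cells, as summit pileup per tag density, at each promoter region (circles, bars are 95% counting intervals) and the median of the shared peaks within 5 Mb (squares, bars are quartiles), untreated on the left and with IFN-γ on the right. The intron 1 region stands for IFNGR2 on both sides. JAK2 is the highest gene in both panels (0.94 and 0.52) and its surroundings stand at 0.87, just below it, untreated and at 0.82, above it, with IFN-γ.

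TYK2 (ENSG00000105397.15, chromosome 19, minus strand, TSS at 10380572) had the highest promoter pileup of the 6 genes in WT and WT-IFN-γ, with 153 tags (130 to 179) and 156 (132 to 182). sgFLI1 had 126 (105 to 150) and sgFLI1-IFN-γ 88 (70.6 to 108), which was below the other 3 libraries. The log2 ratio of sgFLI1-IFN-γ to sgFLI1 was -0.50 (-0.91 to -0.10) and that to WT-IFN-γ -0.46 (-0.85 to -0.07), whereas sgFLI1 and WT differed by -0.07 (-0.42 to 0.28). The surroundings had medians of -0.15, -0.28 and -0.22 for these comparisons, and with them at 0 the last value turned to 0.16.

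A region 10.4 kb upstream of TYK2, whose summit lay just outside the window, had 26 and 33 tags in the WT pair and 29 in sgFLI1-IFN-γ and was missing in sgFLI1, where at least 21.2 would be seen and at most 15 were needed. One in intron 20, at 26.6 kb, was missing in WT and had 20 tags in WT-IFN-γ and 23 and 22 in the FLI1-KO pair, which would amount to 28.2 and 27.7 in WT, where at most 11 were needed. It lay at -74 bp from an annotated start of TYK2 itself. The regions at 8.5 kb upstream and 16.5 kb downstream were in every list, with 30 to 53 and 21 to 34 tags.

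PTPN2 (ENSG00000175354.20, chromosome 18, minus strand, TSS at 12884237), the inhibitor of the set, had 4, 7, 4 and 4 peaks. WT cells had 111 tags at its promoter (91.3 to 134), and 144 with IFN-γ (121 to 170), while FLI1-KO cells had 77 (60.8 to 96.2), and 86 with IFN-γ (68.8 to 106). WT-IFN-γ was the highest and both FLI1-KO libraries the lowest. The log2 ratio of IFN-γ to untreated was 0.24 in WT (-0.13 to 0.61) and 0.17 in FLI1-KO cells (-0.29 to 0.64), and that of FLI1-KO to WT was -0.31 (-0.75 to 0.12) untreated and -0.38 (-0.78 to 0.02) with IFN-γ. None of these intervals excluded 0, and the surroundings had medians of -0.23 and -0.38 in the last pair, so that relative to them the values were -0.08 and 0.00.

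At 2 distal PTPN2 regions the ratio of FLI1-KO to WT cells had an interval below 0 with IFN-γ. At 6.1 kb upstream there were 30, 43, 15 and 16 tags, and in intron 2, at 45.9 kb, 32, 48, 25 and 19. The log2 ratio of sgFLI1-IFN-γ to WT-IFN-γ was -1.06 (-1.99 to -0.20) at the first and -0.97 (-1.82 to -0.18) at the second, or -0.68 and -0.59 relative to the surroundings. Both intervals held the median of the surroundings, -0.38, so neither region was resolved from them. Without IFN-γ the ratios of sgFLI1 to WT were -0.79 (-1.79 to 0.15) and -0.14 (-0.96 to 0.66), or -0.55 and 0.09 relative to the surroundings. Summed over the 4 regions of every list, PTPN2 had 203, 267, 133 and 146 tags, with a log2 ratio of FLI1-KO to WT of -0.40 (-0.72 to -0.07) untreated and -0.51 (-0.81 to -0.21) treated. The surroundings had medians of -0.23 and -0.38, which these intervals held. The region 50.4 kb upstream had 30, 32, 16 and 25 tags, with a log2 ratio of FLI1-KO to WT of -0.69 (-1.67 to 0.23) untreated and 0.01 (-0.81 to 0.81) treated.

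The strongest PTPN2 region of WT-IFN-γ alone lay at -19962 bp from the canonical TSS, within the gene body of longer transcripts (chr18:12903979-12904433), with 49 tags (36.3 to 64.8). It would amount to 49.1 tags in WT, where 13 were needed, and at the depth of sgFLI1-IFN-γ, the shallowest library, to 39.0, where 11 were. No annotated coding start was nearer than that of PTPN2. Weak regions in intron 2 at 40.7 and 44.4 kb, with 15 and 17 tags, were in the same list only.

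**Figure D4:**
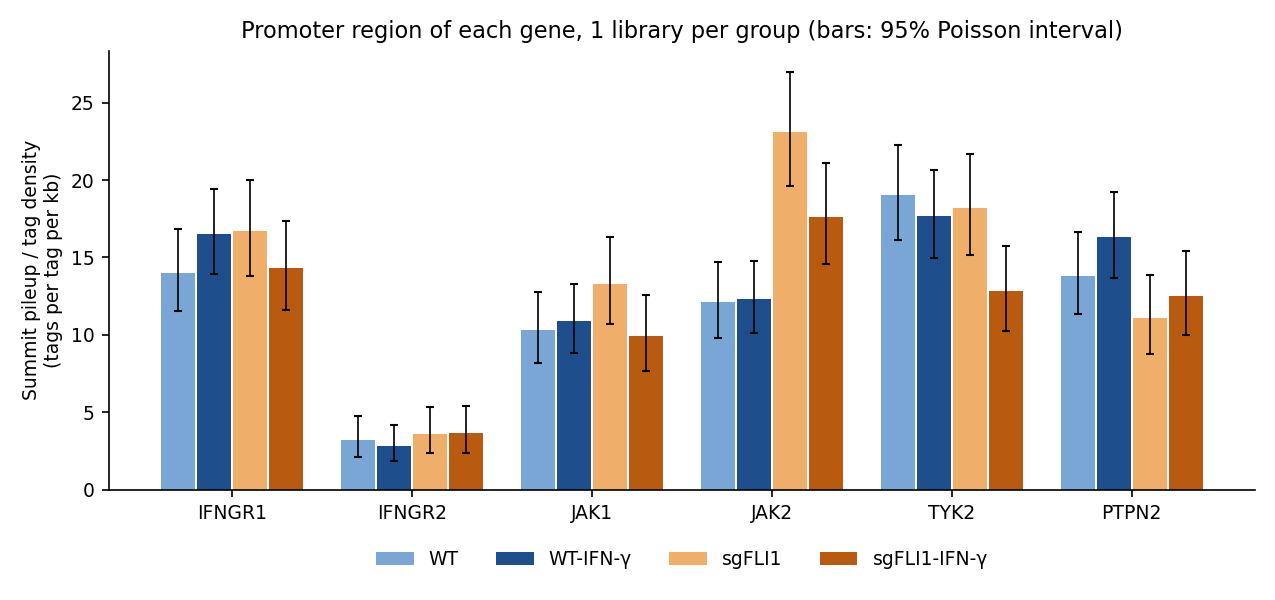
Summit pileup divided by tag density (y axis) at the promoter region of each gene in the 4 libraries (bars, with the 95% Poisson interval). IFNGR2 is the lowest gene in every library (2.83 to 3.64), and JAK2 shows both FLI1-KO bars (23.1 and 17.6) above both WT bars (12.1 and 12.3).

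After treatment of WT cells, 10 of the 36 peaks at the 6 genes had no WT counterpart (27.8%, Wilson interval 15.8 to 44.0%), against 25.2% of all WT-IFN-γ peaks. The count was 6 when a −log10 q of at least 5, or of at least 10, was required of every peak. They lay at JAK1 (5), PTPN2 (3), IFNGR2 (1) and TYK2 (1). Of the 27 WT peaks 1 was without a WT-IFN-γ counterpart, against 15.9%. At the 6 promoters 0 passed 1.5-fold in either direction, against 2.70% of 11794 promoters, and the log2 ratios ranged from -0.19 to 0.24. Of 26 regions in both lists, the interval of 1 excluded 0, at 38.9 kb in IFNGR2 (1.06, 0.11 to 2.08), against 7.53% of all regions.

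In FLI1-KO cells 1 of 28 sgFLI1-IFN-γ peaks had no sgFLI1 counterpart, against 18.0%, and 4 of 30 sgFLI1 peaks had no sgFLI1-IFN-γ counterpart (13.3%, 5.31 to 29.7%), against 22.2%. At 5 promoters with a peak in both lists 0 passed 1.5-fold, against 3.38%. They ranged from -0.50 at TYK2 to 0.17 at PTPN2, and the ratio was below 0 at IFNGR1, JAK1, JAK2 and TYK2. Over the 26444 peaks of the series that overlapped 1 to 1 with over 60 tags summed, the median was -0.16. Relative to it these 4 stood at -0.07, -0.26, -0.23 and -0.34 and PTPN2 at 0.33. The intervals of 3 of 26 regions excluded 0, all below it, against 4.50% of all regions in either direction. They were the JAK2 promoter (-0.39, -0.74 to -0.04), the TYK2 promoter and the IFNGR2 region at 25.4 kb, and the intervals of the 2 promoters held the series median of -0.16.

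Between genotypes without IFN-γ, 6 of 30 sgFLI1 peaks had no WT counterpart (Wilson interval of the share 9.51 to 37.3%), against 25.3%, and 2 of 27 WT peaks had no sgFLI1 counterpart, against 21.4%. JAK2 was the 1 of 5 promoters past 1.5-fold, against 6.79% of promoters. The intervals of 4 of 24 regions excluded 0, all above it, against 15.2% in either direction, a share near that of the regions here. With IFN-γ, 9 of 36 WT-IFN-γ peaks had no sgFLI1-IFN-γ counterpart (13.8 to 41.1%), against 29.0%, and 1 of 28 sgFLI1-IFN-γ peaks had no WT-IFN-γ counterpart, against 19.8%. Of 6 promoters 0 passed 1.5-fold, against 7.23%. The intervals of 4 of 27 regions excluded 0, against 14.3%, with JAK2 above it and TYK2 and the PTPN2 pair below it.

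Other genes of the pathway were set beside them as a list of 17, of related receptors, the ligand, phosphatases, SOCS and PIAS inhibitors and an early target. Of these, 12 had a promoter peak in every list, and their peaks numbered 43, 48, 42 and 42. IFNG itself, the ligand gene, had none. IRF1, an early target gene of IFN-γ, had 112, 172, 122 and 122 tags at the promoter. Its log2 ratio of treated to untreated was 0.48 in WT cells (0.13 to 0.84) and 0.02 in FLI1-KO cells (-0.36 to 0.39), and the difference of the 2 ratios was not tested.

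Among the receptor genes of the list, the ratios past 1.5-fold came from low pileups. IL20RA, a chain of the receptors for the IL-20 group of cytokines, had 24, 41, 17 and 19 tags and was the 1 gene past 1.5-fold higher in treated WT cells, where its log2 ratio of 0.64 had an interval from -0.12 to 1.43. In FLI1-KO cells 0 of the 12 passed. FLI1-KO cells were past 1.5-fold below WT at IL22RA1, a chain of the IL-22 receptor (17, 23, 8 and 10 tags), untreated and treated, at IFNLR1, the type III interferon receptor chain (29, 23, 16 and 17), untreated, and at IL20RA treated. This was 2 of 12 in each state, against the 6.79% and 7.23% of all promoters given above, and the intervals of all 4 ratios held 0. They ran from -2.29 to 0.42 and, treated, from -2.07 to 0.29 at IL22RA1, from -1.62 to 0.28 at IFNLR1 and from -1.61 to 0.07 at IL20RA. The median log2 ratios over the 12 were -0.09, 0.01, -0.14 and -0.10 for WT-IFN-γ to WT, sgFLI1-IFN-γ to sgFLI1, sgFLI1 to WT and sgFLI1-IFN-γ to WT-IFN-γ, beside -0.08, -0.16, 0.02 and -0.06 over all promoters.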

How the data were processed

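The 4 ATAC-seq peak lists of HK1 cells, 1 for each genotype with and without IFN-γ, were analysed as deposited. Per the labels and the study's methods, Trimmomatic (0.3) was used for trimming, Bowtie2 (2.3.4.1) for alignment to GRCh38 and MACS2 (2.1.2) for peaks, after poorly mapped and duplicate reads had been removed. A reproducibility filter between replicates is also named, and whether the deposited lists come from before or after it, and from 1 replicate or pooled ones, is not given in the sources used here. A shift of tag ends for the transposase is not mentioned there. In each deposited list the authors gave a score, a fold enrichment over local background (a ratio) and the −log10 p-value and −log10 q-value at the summit, and the largest q was 0.0499. The score was not used.

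The pileup k and background were solved from the deposited fold, (k + 1) / (background + 1), and the Poisson p-value, to within 0.001 of the −log10 p. This failed for 1 peak in sgFLI1-IFN-γ, which was left out of ratios. Tag density was the lowest background of a list divided by its shortest peak, and MACS2's genome size enters it, so it compares libraries and is no read total. Summits were chosen by MACS2 as the highest point, so low pileups are biased upwards. An overlap of 1 bp made 2 peaks shared. A region's value in a list was its highest peak. Ratios of pileups have exact conditional binomial intervals, pileups exact Poisson and shares Wilson intervals, all at 95%, and no p-value was computed between groups. Surroundings were peaks within 5 Mb that overlapped 1 to 1 with over 60 tags summed. For a region missing from a list, the tags and background seen elsewhere were scaled by the ratio of the lists' lowest backgrounds. They were compared with the number needed to reach the lowest −log10 p of the list that missed the region, which was at most 3.16. The lowest backgrounds were 2.20, 2.20, 1.80 and 1.75 tags. Tag density also divides by the shortest peak (274, 249, 259 and 255 bp), so scaled tags and ratios rest on different scales. GENCODE gene models and hg38 sequence were read with samtools 1.23.1. Calculations were done in Python 3.11.15 with scipy 1.17.1, pandas 2.3.3 and numpy 2.4.6 and plots with matplotlib 3.10.9, and the steps were tested on simulated data.

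The 6 genes, the 17 other pathway genes, the markers and the motifs were chosen with earlier results of these data known. Named in full were each promoter region, the 7 of 17 regions missing from 1 to 3 lists with at least 20 tags, and the 3 highest other regions in every list, and up to 5 pathway genes by the size of their promoter change. Alternatives were −log10 q limits of 5 and 10, windows of the gene body alone and with 50 kb upstream, pileups and backgrounds scaled to the tag density of the shallowest library, an overlap of 50% of both peaks, ratios centred genome-wide or within 5 Mb, background subtraction and promoters within 3 kb.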

Additional observations from a re-analysis of the deposited data

Results flagged for a closer look

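In these results IFN-γ went with opposite directions in WT and FLI1-KO cells, with 1 library on each side, and the difference was not tested in any of them. The number of peaks with IFN-γ minus that without was 9 in WT and -2 in FLI1-KO cells over the 6 genes, 4 and -1 at JAK1, and 1 and -1 at IFNGR2. The whole lists went the same ways, from 59629 to 67470 peaks in WT and from 63203 to 59923 in FLI1-KO cells. The promoter log2 ratio of IFN-γ to untreated was 0.23 in WT and -0.23 in FLI1-KO cells at IFNGR1, 0.07 and -0.42 at JAK1, and 0.03 and -0.39 at JAK2. In WT the intervals at IFNGR1 (-0.13 to 0.60), JAK1 (-0.36 to 0.52) and JAK2 (-0.38 to 0.44) held 0, so no direction was resolved. In FLI1-KO cells only that at JAK2 (-0.74 to -0.04) excluded 0. Over peaks of the series that overlapped 1 to 1 with over 60 tags summed, the median was -0.06 in WT and -0.16 in FLI1-KO cells for the same contrasts. Of the FLI1-KO values, that at IFNGR1 was 0.04 relative to its surroundings.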

How the results depend on the processing

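Of the 84 values recomputed under other settings, 65 stayed within 1.5 times the reported count or within the counting interval, 19 moved and 0 changed sign. Promoter ratios entered these as medians over the genes. For single genes, with the surroundings within 5 Mb at 0, IFNGR1 turned from -0.23 to 0.04 (sgFLI1-IFN-γ to sgFLI1), TYK2 from -0.07 to 0.16 (sgFLI1 to WT) and JAK2 from 0.52 to -0.30 (sgFLI1-IFN-γ to WT-IFN-γ), and JAK2 moved from 0.94 to 0.06 (sgFLI1 to WT). With promoters within 3 kb, IFNGR2 moved from 0.37 to 1.08 (sgFLI1-IFN-γ to WT-IFN-γ), which is past 1.5-fold. Its ratio of sgFLI1 to WT was then 0.94, the same value as at JAK2. At that width the IFNGR2 region 2.2 kb upstream entered as the promoter peak of the FLI1-KO pair. Of the 84, all that moved were counts of peaks without a counterpart, most of them small. With −log10 q of at least 5, WT-IFN-γ peaks without WT numbered 6, sgFLI1 peaks without sgFLI1-IFN-γ 1, sgFLI1 peaks without WT 3 and sgFLI1-IFN-γ peaks without WT-IFN-γ 2. With at least 10, WT-IFN-γ without WT numbered 6, sgFLI1-IFN-γ without sgFLI1 3, sgFLI1 without sgFLI1-IFN-γ 2, WT without sgFLI1 4 and sgFLI1-IFN-γ without WT-IFN-γ 2. The peaks at the 6 genes were also fewer at these limits, with 25, 30, 25 and 26 at 5 and 20, 25, 20 and 21 at 10. Within the gene body alone, sgFLI1-IFN-γ without WT-IFN-γ numbered 0, since the region upstream of IFNGR2 lay outside it. With 50 kb upstream, WT without WT-IFN-γ numbered 2, sgFLI1-IFN-γ without sgFLI1 2 and sgFLI1-IFN-γ without WT-IFN-γ 3. With an overlap of 50% of both peaks, WT without WT-IFN-γ numbered 2, sgFLI1-IFN-γ without sgFLI1 5, sgFLI1 without sgFLI1-IFN-γ 8, sgFLI1 without WT 10, WT without sgFLI1 7 and sgFLI1-IFN-γ without WT-IFN-γ 4. The cause was not tested for the others. No replicate could be left out, and no paired analysis was possible because each group held 1 library and no result came from a test. At pileups near 8 tags the listing of a peak is within counting error of the limit, and the order of the promoter levels cannot be resolved where their intervals overlap.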
